A study of Craterostigma plantagineum with 12 samples.

Results

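Cp_V2_contig_4317 is an assembled leaf transcript of the resurrection plant Craterostigma plantagineum whose description in the deposited annotation is "dessication-related protein". It was taken by its identifier, as the most abundant transcript of that kind, and is 1 of 48045 contigs in the expression table. Contigs are stretches of transcript put together from reads, and several may stem from the same gene. Its best database hit is the desiccation-related protein of clone PCC6-19 (CDET6-19) of the same species, and the hit text also calls it abscisic acid responsive protein B. Cp_V2_contig_4317 is 321 bases long, against a median of 522 bases over all contigs, and 6.57% of contigs are no longer than it. The files give contig lengths and no genome positions. Because the level chose the contig, its levels and fold changes are given as a description, with no test.

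Leaves of vegetatively propagated plants were compared in 4 states with 3 libraries each. Fresh leaves came from untreated plants at 100% relative water content (RWC, leaf water as a share of the full content). Leaves at about 60% RWC came from plants dried in their pots for 3 to 4 days, and leaves at 2% RWC from plants dried for 15 days. Rehydrated leaves came from desiccated plants kept under water for 24 h. The incubators kept 60% relative humidity and cycles of 14 h light and 8 h dark. Each library was made from its own pool of leaves of 6 to 9 plants, so a library averages several plants. All states share this propagated stock and these growth conditions. Drying time differed between the states and watered plants of matching time are not among the libraries, so water content and time without water cannot be told apart.

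The protein of clone PCC6-19 belongs to the dehydrins, the group of late embryogenesis abundant (LEA) proteins that are very hydrophilic, largely unfolded in solution and accumulate in seeds and in drying or cold tissue. LEA proteins are thought to shield membranes and other proteins when water is lost. In Craterostigma plantagineum the cDNA clones named PCC or CDeT were isolated from drying leaves and from callus treated with abscisic acid, the hormone that plants make when water runs short.

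Libraries held 14784251 to 21271288 reads on contigs, and 46494 contigs passed the filter on low counts. The leaf label was checked on 28 contigs described as Rubisco small chain or chlorophyll a-b binding protein, which mark the photosynthetic leaf cells. Their share of reads was 2.32 ± 0.632% for fresh leaves and 0.416 ± 0.0274% at 60% RWC, with 0.318 ± 0.0621% at 2% RWC and 1.59 ± 0.295% in rehydrated leaves (SD, n = 3 each), and none of the 28 was without reads in any state. The share of these markers was lower in both dried states than in fresh and rehydrated leaves, whereas Cp_V2_contig_4317 was higher in the dried states. Both the summed marker share and Cp_V2_contig_4317 had a lower mean at 2% than at 60% RWC. In that step 1 of the 28 markers rose and 7 fell (edgeR adjusted p below 0.05), as did 19.6% and 25% of all contigs. The median log2 fold change of the markers was -0.08. The part of the markers in the levels of Cp_V2_contig_4317 was not tested. In such bulk samples, fewer cells of a type and less RNA per cell cannot be told apart.

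Cp_V2_contig_4317 led all contigs in both dried states, and was far lower in rehydrated and in fresh leaves. RPKM, the deposited level scaled to contig length and library total, was 1199, 238 and 451 in the fresh libraries, replicates 1 to 3. It was 55812, 72001 and 62005 RPKM at 60% RWC. It was 38209, 40408 and 42264 RPKM at 2% RWC, and 1669, 1583 and 1478 RPKM in rehydrated leaves. The 4 states therefore ran in the order 60% RWC, 2% RWC, rehydrated and fresh, and no library of a state overlapped those of a neighbouring one. The share of all contigs for which this held is given with each comparison. The closest pair was rehydrated and fresh leaves, where the lowest rehydrated library had 1478 RPKM and the highest fresh library 1199 RPKM. State means were 629 ± 505 RPKM in fresh leaves and 63273 ± 8168 at 60% RWC, with 40294 ± 2030 at 2% RWC and 1577 ± 95.8 in rehydrated leaves (SD, n = 3 each). Fresh leaves were the state that varied, with a coefficient of variation of 80.2% and a 5.05-fold range, against 12.9% at 60% RWC, 5.04% at 2% RWC and 6.08% after rehydration.

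**Figure D1:**
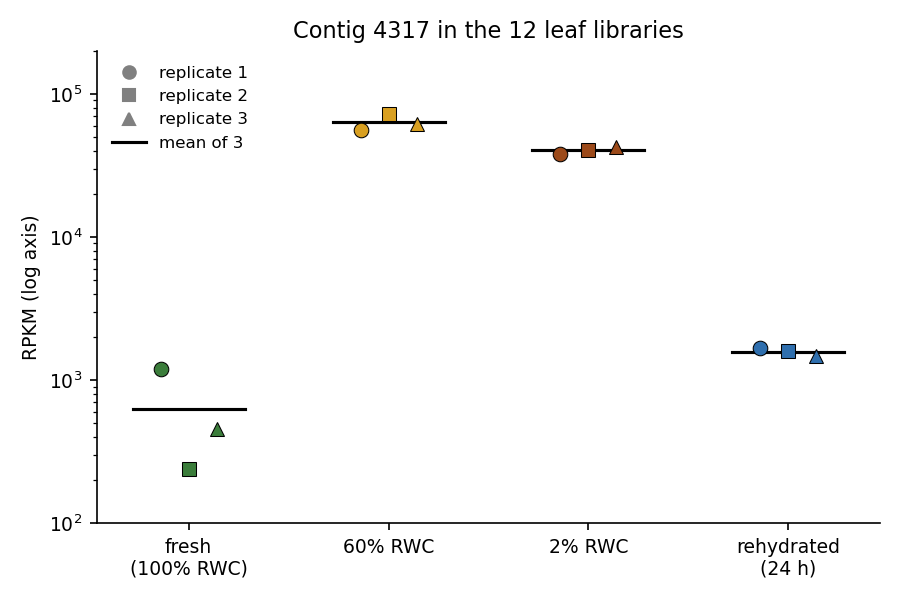
RPKM of Cp_V2_contig_4317 on a log axis in each of the 12 libraries, by state, with symbols for the replicates and a bar at the mean of 3. The 3 libraries at 60% RWC lie between 55812 and 72001 RPKM and those at 2% RWC between 38209 and 42264, all far above the rehydrated and fresh libraries, and the fresh libraries spread from 238 to 1199 RPKM.

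Averaged over the 12 libraries, Cp_V2_contig_4317 had 26443 RPKM and ranked first of all contigs. The next contig in mean level was Cp_V2_contig_17307, a putative transmembrane protein, at 11249 RPKM, so that Cp_V2_contig_4317 was 2.35-fold higher. No contig stood above it. The next desiccation-related contig was Cp_V2_contig_22977 at 3339 RPKM, and Cp_V2_contig_4317 was 7.92-fold higher. In each of the 6 dried libraries Cp_V2_contig_4317 ranked first by RPKM. Its rank was 28 to 31 in rehydrated libraries and 48, 497 and 221 in fresh libraries 1, 2 and 3. By reads, of which longer contigs collect more, its rank was 3 in each dried library. It held 320051 to 353520 reads per library at 60% RWC and 1287 to 6682 in fresh leaves, and at least 99.9% of them matched no other contig. As a share of all reads this was 0.0202 ± 0.0162% in fresh leaves and 2.03 ± 0.262% at 60% RWC, with 1.29 ± 0.0652% at 2% RWC and 0.0506 ± 0.00308% in rehydrated leaves (SD, n = 3 each).

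Partly dried leaves were set against fresh leaves to describe the early stage of drying. At 60% RWC Cp_V2_contig_4317 averaged 63273 RPKM, against 629 RPKM in fresh leaves, a 101-fold ratio. The log2 fold change from the fit across all contigs was 6.68 (SE 0.62). The median log2 fold change of all contigs was -0.06, and 274 of the 46494 contigs had a larger one than Cp_V2_contig_4317. Libraries did not overlap, which held for 17.1% of all contigs in the higher direction. Fresh replicate 1 weighed on this ratio. Without it the fresh mean was 344 RPKM, the ratio 184-fold and the log2 fold change 7.67 (SE 0.40).

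Full desiccation against fresh leaves gave a picture close to that of partial drying, at a lower level. At 2% RWC Cp_V2_contig_4317 averaged 40294 RPKM, against 629 RPKM in fresh leaves, a ratio of 64.0. The log2 fold change was 6.14 (SE 0.60), beside a median of -0.22 over all contigs, and 279 contigs had a larger one. Of all contigs, 23.3% had libraries at 2% RWC that all lay above the fresh ones. Without fresh replicate 1 the ratio was 117 and the log2 fold change 7.14 (SE 0.39).

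Between the dried states Cp_V2_contig_4317 was lower at full desiccation. At 2% RWC it averaged 40294 RPKM, or 63.7% of the 63273 RPKM at 60% RWC. The log2 fold change was -0.53 (SE 0.48 in the fit of all 12 libraries, and SE 0.13 in a fit of these 6 libraries). All contigs had a median of -0.13, and 39.5% had 2% RWC libraries that all lay below those at 60% RWC. The fit of all 12 libraries shares 1 estimate of the spread, to which the fresh libraries contribute.

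Rehydration for 24 h was set against full desiccation to follow recovery. Cp_V2_contig_4317 averaged 1577 RPKM in rehydrated leaves, against 40294 RPKM at 2% RWC, which is 3.91% of the desiccated level. The log2 fold change was -5.07 (SE 0.57), beside a median of 0.13 over all contigs. Only 156 contigs had a lower fold change. In 23.5% of all contigs the rehydrated libraries all lay below the desiccated ones.

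The level of Cp_V2_contig_4317 was higher in rehydrated than in fresh leaves, and by how much depended on the fresh libraries. The means were 1577 RPKM in rehydrated leaves and 629 RPKM in fresh leaves, a ratio of 2.51. The log2 fold change was 1.07 (SE 0.49), or 1.09 (SE 0.63) in a fit of these 6 libraries. Without fresh replicate 1 the ratio was 4.58 and the log2 fold change 2.07 (SE 0.30). Rehydrated libraries all lay above the fresh ones, as did those of 14.8% of all contigs.

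Scaling by library totals alone, without the TMM factors that allow for a few transcripts filling a library, shifted the median log2 fold change of all contigs by -0.11 at 60% RWC and -0.22 at 2% RWC against fresh leaves. The shift was -0.11 for 2% against 60% RWC, 0.39 for rehydrated against 2% RWC and 0.16 for rehydrated against fresh leaves. Cp_V2_contig_4317 was therefore also read against the median contig. It stood 6.74 above that median at 60% RWC and 6.36 above it at 2% RWC, both against fresh leaves, and without TMM 6.83 and 6.44. At 2% against 60% RWC it was -0.41 from the median, and in rehydrated leaves against 2% RWC -5.19 from it, under either scaling.

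Cp_V2_contig_4317 has 2 sister contigs with the same best hit, and they followed it at lower levels. Cp_V2_contig_2915, 545 bases long and with the same description, had 6486, 6918 and 5850 RPKM at 60% RWC, against 176, 18.59 and 30.03 RPKM in fresh leaves. It had 3995, 4044 and 3405 RPKM at 2% RWC and 174, 165 and 118 RPKM in rehydrated leaves. Its libraries thus ran in the same order of drying states, and fresh replicate 1 reached the rehydrated level. Cp_V2_contig_2915 rose at 60% RWC (log2 fold change 6.42, SE 0.84, edgeR adjusted p = 0.000153) and at 2% RWC (5.78, SE 0.81, edgeR adjusted p = 0.000104) against fresh leaves. It fell on rehydration (-5.04, SE 0.78, edgeR adjusted p = 0.000238). Neither the step between dried states (-0.64, SE 0.66, edgeR adjusted p = 0.462) nor that between rehydrated and fresh leaves (0.75, SE 0.67, edgeR adjusted p = 0.519) passed the threshold of 0.05.

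Cp_V2_contig_10660, 372 bases long, shares the best hit but is described as dehydrin 1. It had 3612, 3928 and 3450 RPKM at 60% RWC, against 49.4, 9.55 and 9.27 RPKM in fresh leaves. It had 2246, 2155 and 1900 RPKM at 2% RWC and 66.6, 70.1 and 61.5 RPKM in rehydrated leaves. Fresh replicate 1 was again above the other fresh libraries. The contig rose at 60% RWC (7.35, SE 0.71, edgeR adjusted p = 1.74e-05) and at 2% RWC (6.66, SE 0.69, edgeR adjusted p = 1.18e-05) against fresh leaves, and fell on rehydration (-5.38, SE 0.65, edgeR adjusted p = 3.82e-05). Rehydrated against fresh leaves gave 1.28 (SE 0.55, edgeR adjusted p = 0.172). Without fresh replicate 1 both sisters rose in that comparison, Cp_V2_contig_2915 with a log2 fold change of 2.53 (edgeR adjusted p = 0.000465) and Cp_V2_contig_10660 with 2.71 (edgeR adjusted p = 1.56e-05).

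Within a library the ratio of Cp_V2_contig_4317 to its sisters moved far less than their levels did. Cp_V2_contig_4317 had 8.60 to 10.6 times the RPKM of Cp_V2_contig_2915 at 60% RWC, 9.56 to 12.4 times at 2% RWC and 9.57 to 12.5 times in rehydrated leaves. In fresh leaves the ratio was 6.80 in replicate 1 and 12.8 and 15.0 in the others. Against Cp_V2_contig_10660 the ratio was 24.3 to 48.7 in fresh leaves, 15.5 to 18.3 at 60% RWC, 17.0 to 22.2 at 2% RWC and 22.6 to 25.1 in rehydrated leaves. The ratio to Cp_V2_contig_10660 was therefore higher in every hydrated library than in every dried one. Of the reads on the 3 contigs, Cp_V2_contig_4317 held 83.3 ± 5.60% in fresh leaves and 80.6 ± 1.73% at 60% RWC, with 81.9 ± 2.00% at 2% RWC and 82.5 ± 1.68% in rehydrated leaves (SD, n = 3 each).

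Beyond these sisters, 11 contigs are described as dehydrins, which with the sisters make a list of 13. In these 13, 10 were highest at 60% RWC and 3 in fresh leaves, and none was highest at 2% RWC or after rehydration. Of all contigs, 17.5% were highest at 60% RWC, 25.9% in fresh leaves, 24.9% at 2% RWC and 31.8% after rehydration. The part highest in fresh leaves, 23.1% of the 13, was thus near that of all contigs. Against fresh leaves, 8 rose and 3 fell at 60% RWC (edgeR adjusted p below 0.05), where 15.6% of all contigs rose and 23.3% fell. At 2% RWC 8 rose and 5 fell, with 26% and 34.9% of all contigs. At 2% against 60% RWC 0 rose and 6 fell (10 in a fit of the 6 libraries), against 19.6% and 25% of all contigs, and the list's median log2 fold change was -0.72. At an unadjusted p below 0.05 and by DESeq2 also 0 rose there. On rehydration 1 rose and 6 fell, with 31.1% and 25.4% of all contigs. The list was drawn up after the values had been seen, so its counts describe it and test nothing.

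The most abundant other dehydrin was Cp_V2_contig_22485, described as dehydrin DHN3. It had 12066, 13730 and 10282 RPKM at 60% RWC and 5648, 6286 and 5283 RPKM at 2% RWC. It had 495, 513 and 362 RPKM in rehydrated leaves and 167, 65.4 and 73.5 RPKM in fresh leaves. Its state order was that of Cp_V2_contig_4317, and Cp_V2_contig_4317 had 3.09 to 8.00 times its RPKM within a library. Cp_V2_contig_15111, described as dehydrin 1 but without the PCC6-19 hit, averaged 62.7 ± 16.3 RPKM in fresh leaves and 8629 ± 359 at 60% RWC, with 4818 ± 343 at 2% RWC and 247 ± 39.6 in rehydrated leaves (SD, n = 3 each). In this contig fresh replicate 1 was not the highest, with 64.3 RPKM beside 45.7 and 78.1. Cp_V2_contig_22485 rose at 60% RWC by a log2 fold change of 6.94 (SE 0.46, edgeR adjusted p = 1.2e-06) and Cp_V2_contig_15111 by 7.19 (SE 0.31, edgeR adjusted p = 7.56e-08).

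Among the remaining dehydrin contigs, Cp_V2_contig_29428 and Cp_V2_contig_3217 had the state order of Cp_V2_contig_4317. The former averaged 2473 ± 17.5 RPKM at 60% RWC and 1254 ± 58.7 at 2% RWC (SD, n = 3 each). The latter averaged 4732 ± 364 and 2709 ± 182 RPKM (SD, n = 3 each). Others took another course than Cp_V2_contig_4317, some at full desiccation and some already at 60% RWC. A pair of contigs with the same dehydrin description fell at 2% against 60% RWC. Cp_V2_contig_19242 had 183 ± 19.6 RPKM at 2% RWC, against 3143 ± 215 at 60% RWC (SD, n = 3 each; log2 fold change -3.98, SE 0.39, edgeR adjusted p = 2.33e-05). Cp_V2_contig_6006 had 186 ± 31.9 RPKM at 2% RWC, against 1701 ± 150 at 60% RWC (-3.08, SE 0.38, edgeR adjusted p = 0.000103). Cp_V2_contig_802, another dehydrin, had its lowest level at 2% RWC. It had 59.7 ± 8.22 RPKM at 2% RWC, against 2952 ± 334 at 60% RWC (-5.52, SE 0.31, edgeR adjusted p = 1.78e-06), and 2381 ± 657 RPKM in fresh leaves (SD, n = 3 each). It rose on rehydration to 1254 ± 192 RPKM, against 59.7 RPKM at 2% RWC (4.01, SE 0.29, edgeR adjusted p = 1.4e-06). Cp_V2_contig_7405, described as dehydrin ERD14, was highest in fresh leaves and fell to 96.0 ± 20.8 RPKM at 60% RWC, against 343 ± 193 in fresh leaves (-1.78, SE 0.39, edgeR adjusted p = 0.00394). Cp_V2_contig_445 and Cp_V2_contig_3885, a dehydrin and a dehydrin-like protein, also fell at 60% RWC against fresh leaves, and only 54.0% and 64.9% of their reads were unique to them, so their counts are uncertain. The call of Cp_V2_contig_3885 at 60% RWC was lost in a fit of the 6 libraries alone. These 3 did not pass the test at 2% against 60% RWC, with log2 fold changes of -0.06 for Cp_V2_contig_7405, 0.04 for Cp_V2_contig_445 and -0.52 for Cp_V2_contig_3885.

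**Figure D2:**
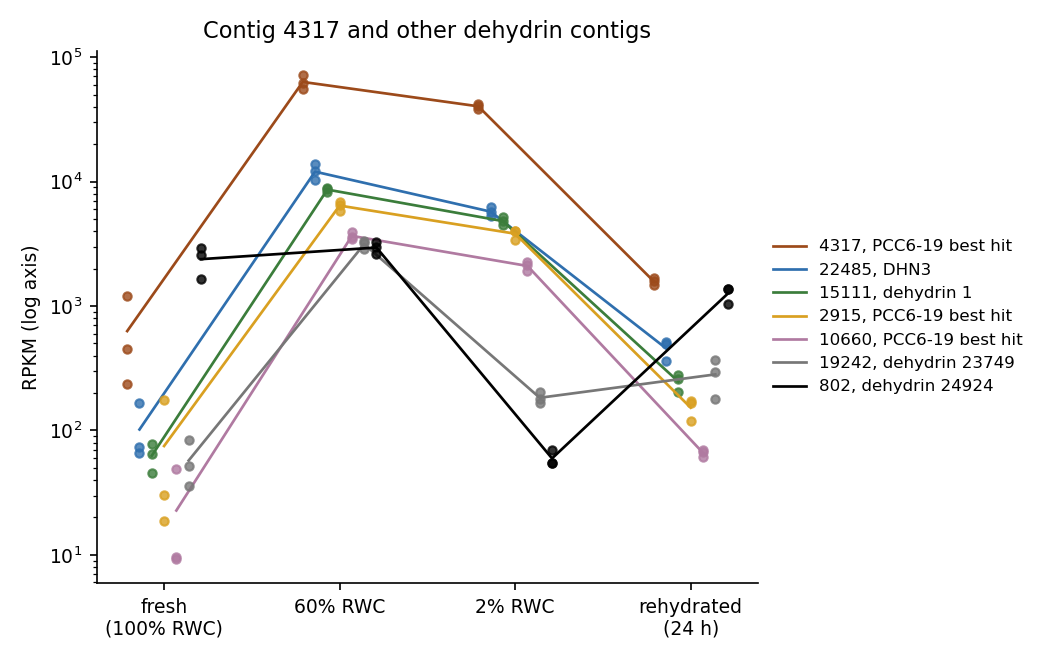
RPKM on a log axis by state for Cp_V2_contig_4317, its sisters Cp_V2_contig_2915 and Cp_V2_contig_10660 and 4 other dehydrin contigs, with a point for each library and lines joining the state means. Cp_V2_contig_4317 lies above the others at 60% and 2% RWC and after rehydration, and the lines of Cp_V2_contig_19242 and Cp_V2_contig_802 drop between 60% and 2% RWC, where those of Cp_V2_contig_4317 and its sisters decline far less.

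The wider list of desiccation-related contigs holds 49 others, found by that word in the description or best hit, and all 49 passed the filter on low counts. Of them 25 are also early light-induced, 8 are also in the list of LEA proteins and dehydrins, and 36 have the species in their annotation. At 60% RWC against fresh leaves 46 rose and 1 fell, against 15.6% and 23.3% of all contigs, with a median log2 fold change of 7.49. At 2% RWC against fresh leaves 46 rose and 1 fell, against 26% and 34.9%, with a median of 8.81. Most of the list had a larger fold change than Cp_V2_contig_4317, 32 of 49 at 60% RWC and 36 of 49 at 2% RWC. The highest level among the 49 in a dried state was that of Cp_V2_contig_22977, with 10101 RPKM at 2% RWC, where Cp_V2_contig_4317 had 40294 RPKM.

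From 60% to 2% RWC, Cp_V2_contig_4317 (log2 fold change -0.53, SE 0.48) lay below 41 of the 49. Among all contigs, 29099 of 46494 also had a larger fold change than it. At 2% against 60% RWC 26 of the 49 rose and 7 fell, against 19.6% and 25% of all contigs, with a median log2 fold change of 0.83. Of the 49, 34 were highest at 2% RWC, 12 at 60% RWC and 3 in fresh leaves, as were 24.9%, 17.5% and 25.9% of all contigs. The 25 contigs that hit DSP-22, described below, supplied 18 of the 26 that rose and 23 of the 34 highest at 2% RWC. Of these 25, 0 fell, so the contrast with the list rests largely on this group. The median contig of the list had 165% of its 60% RWC level at 2% RWC, and Cp_V2_contig_4317 had 63.7%. In rehydrated leaves 0 rose and 42 fell against 2% RWC (0 and 42 to 43 when any 1 library was left out, and 0 higher also by DESeq2 or at an unadjusted p below 0.05), with 31.1% and 25.4% of all contigs and a median of -4.74. The median contig had 4.91% of its desiccated level after rehydration and Cp_V2_contig_4317 had 3.91%, with 15 of 49 below it. Against fresh leaves 39 of the 49 rose and 0 fell in rehydrated leaves by edgeR, while 3.71% and 5.69% of all contigs did, and the median was 4.17. DESeq2 called 3 of them lower in that comparison, and 4 were lower in edgeR at an unadjusted p below 0.05.

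The members of the list, grouped by best hit after their values had been seen, differed in when they peaked. The 25 contigs that hit DSP-22, a chloroplast protein of the early light-induced family, all rose in both dried states against fresh leaves, and 18 rose further at 2% against 60% RWC. Of all contigs, 15.6% rose at 60% RWC and 26% at 2% RWC against fresh leaves, and 19.6% at 2% against 60% RWC. Cp_V2_contig_36065 of this group had 5171 ± 1528 RPKM at 2% RWC, against 992 ± 193 RPKM at 60% RWC (SD, n = 3 each; 2.496, SE 0.39, edgeR adjusted p = 0.000477). Cp_V2_contig_21598 had 3829 ± 1366 RPKM at 2% RWC, against 248 ± 37.6 RPKM at 60% RWC (SD, n = 3 each; 4.06, SE 0.45, edgeR adjusted p = 5.05e-05). In both, replicate 3 was the lowest of the libraries at 2% RWC, with 3458 and 2305 RPKM. Of the 49 contigs, 0 had replicate 3 as their highest library at 2% RWC, whereas Cp_V2_contig_4317 had its highest value there, 42264 RPKM. Among the libraries at 2% RWC, replicate 3 was the highest for 29.7% of all contigs, 5 of the 13 dehydrins and 16 of 54 LEA and dehydrin contigs. The LEA and dehydrin part, 29.6%, was near that of all contigs. In the sisters Cp_V2_contig_2915 and Cp_V2_contig_10660 and in Cp_V2_contig_22485, replicate 3 was the lowest library at 2% RWC. It had 3405, 1900 and 5283 RPKM there.

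The 7 contigs that hit PCC13-62, a desiccation-related protein of the same species, were all highest at 2% RWC, as were 24.9% of all contigs. By edgeR 4 of them rose at 2% against 60% RWC, where 19.6% of all contigs did. None was called without TMM, or when replicate 1 or 2 at 2% RWC or replicate 1 or 2 at 60% RWC was left out, and 2 were called without replicate 3 at 60% RWC. Cp_V2_contig_36163 had 6770, 6896 and 4839 RPKM at 2% RWC, against 4129, 3916 and 4588 RPKM at 60% RWC (0.67, SE 0.20, edgeR adjusted p = 0.0197). Without TMM its edgeR adjusted p was 0.0690. The contig nearest to Cp_V2_contig_4317 in mean level within the list, Cp_V2_contig_22977, is a homolog of the LEA protein Lea14. It had 11180, 10983 and 8141 RPKM at 2% RWC, against 3090, 2939 and 2869 RPKM at 60% RWC (1.88, SE 0.24, edgeR adjusted p = 0.000128). The 3 contigs that hit CDeT27-45, described as Lea14 homologs, rose likewise between these states, by log2 fold changes of 1.31 to 2.44. The other 3 contigs placed in the Lea14 group with Cp_V2_contig_22977 had their highest mean in fresh leaves, as did 25.9% of all contigs. Fresh replicate 1 was the highest fresh library of Cp_V2_contig_8032, with 38.9 RPKM beside 18.2 and 6.67. It was also the highest for Cp_V2_contig_8393, with 26.6 RPKM beside 13.6 and 4.00. Of the 3 contigs, Cp_V2_contig_22805 fell at 2% against 60% RWC (-1.29, SE 0.42, edgeR adjusted p = 0.0280), a call lost with the replicate block or without replicate 2 of either dried state. Cp_V2_contig_8032 fell at 60% RWC against fresh leaves (-2.23, SE 0.66, edgeR adjusted p = 0.0206), a call lost without fresh replicate 1, without replicate 2 or 3 at 60% RWC, or in a fit of the 6 libraries (log2 fold change -1.30 without fresh replicate 1). Cp_V2_contig_8393 did not pass the test there (-1.73, SE 0.64, edgeR adjusted p = 0.0527).

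A smaller set shared the peak of Cp_V2_contig_4317 at 60% RWC. Cp_V2_contig_28204, described as like the abscisic acid inducible barley protein PHV A1, had 2136, 2268 and 1854 RPKM at 2% RWC, against 6605, 6586 and 6040 RPKM at 60% RWC (-1.50, SE 0.34, edgeR adjusted p = 0.00421). The 4 contigs that hit LbLEA-like_11-24 all fell at 2% against 60% RWC, by log2 fold changes from -3.0004 to -2.20, where 25% of all contigs fell. On rehydration 0 of these 4 passed the edgeR test (1 was lower at an unadjusted p below 0.05, and 1 by DESeq2), with log2 fold changes from -1.27 to 0.06, where that of Cp_V2_contig_4317 was -5.07. The 3 contigs that hit At2g46140, an Arabidopsis protein, were also highest at 60% RWC, with log2 fold changes of only 1.04 to 1.49 against fresh leaves.

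**Figure D3:**
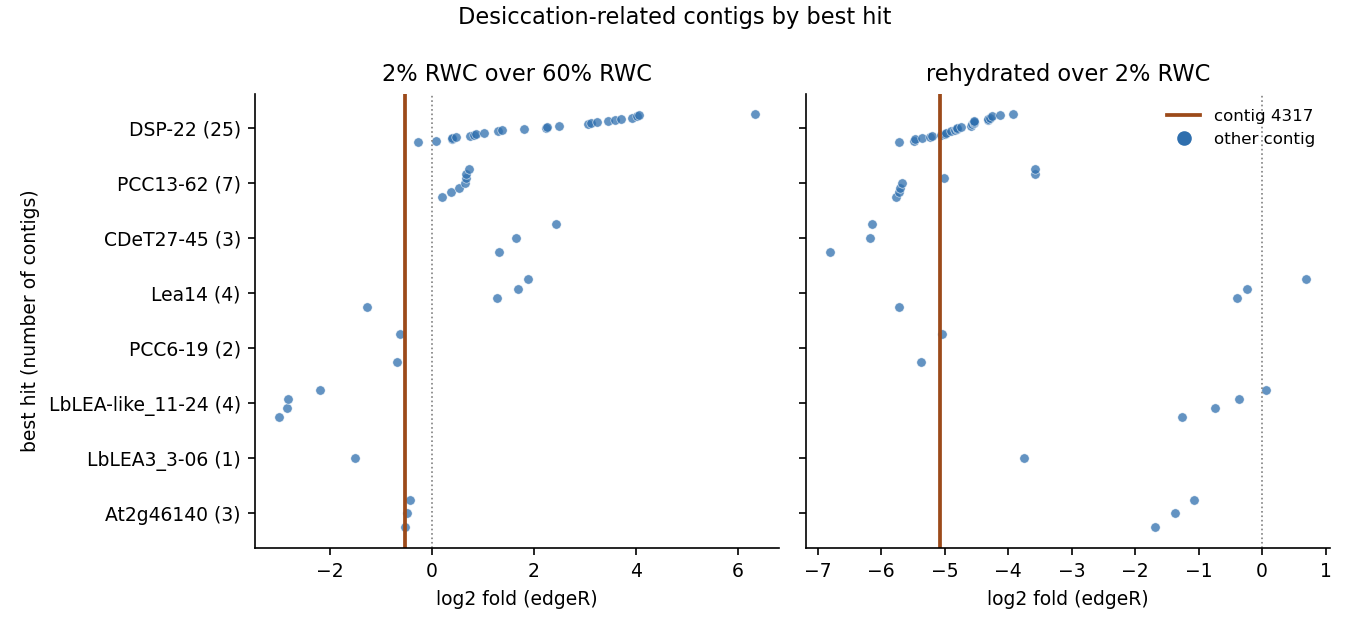
Log2 fold changes of the 49 other desiccation-related contigs, 1 point each, by best hit, for 2% over 60% RWC on the left and rehydrated over 2% RWC on the right, with a line at the value of Cp_V2_contig_4317 (-0.53 on the left and -5.07 on the right). Most points lie right of the line on the left, and the 4 contigs that hit LbLEA-like_11-24 lie far left of it there and near 0 on the right.

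As a part of all desiccation-related reads, Cp_V2_contig_4317 had its largest mean at 60% RWC. Single fresh libraries overlapped that state, with 29.25 to 51.7% in fresh leaves and 44.1 to 51.8% at 60% RWC. It held 41.6 ± 11.4% of the reads on the 50 contigs in fresh leaves and 48.3 ± 3.93% at 60% RWC, with 28.4 ± 5.90% at 2% RWC and 24.0 ± 1.12% in rehydrated leaves (SD, n = 3 each). The other 49 together had 3.35 ± 0.756% of library reads at 2% RWC, against 2.16 ± 0.102% at 60% RWC (SD, n = 3 each). The lower part of Cp_V2_contig_4317 at 2% RWC thus went with both fewer of its own reads and more reads on the others. Together with the list of LEA proteins and dehydrins these made 97 contigs, whose share of library reads was 0.305 ± 0.0915% for fresh leaves and 8.09 ± 0.410% at 60% RWC, with 5.90 ± 0.744% at 2% RWC and 0.484 ± 0.0502% in rehydrated leaves (SD, n = 3 each).

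**Figure D4:**
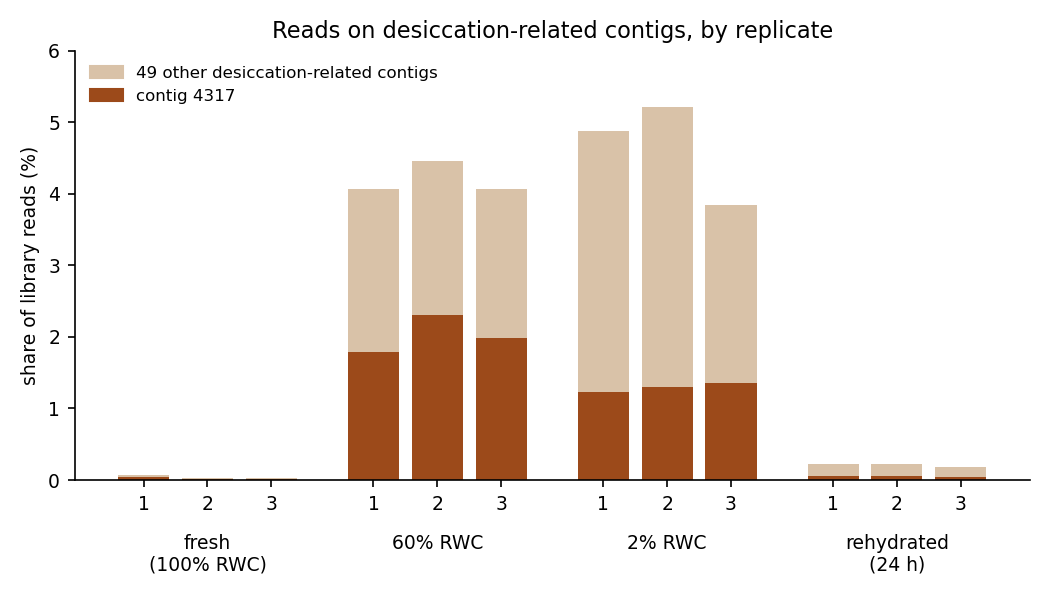
Share of library reads in percent, for Cp_V2_contig_4317 (dark, from 0) and the 49 other desiccation-related contigs stacked on it (light), in each library by state. At 60% RWC Cp_V2_contig_4317 makes up 44.1 to 51.8% of the bar, at 2% RWC 24.9 to 35.2%, and the fresh and rehydrated bars are close to 0 on this axis.

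Further lists of protective proteins served as a measure of how common this course was. Some overlap those above, so their counts are not separate evidence. The LEA and dehydrin list holds 12 of the 13 dehydrins and 8 of the 49 desiccation-related contigs. Of the 30 early light-induced contigs, 25 are among these 49. Of 54 tested contigs described as LEA proteins or dehydrins (of 55), 33 rose and 11 fell at 60% RWC against fresh leaves, with a median log2 fold change of 3.32, and 13 lay above Cp_V2_contig_4317. Of all contigs 15.6% rose and 23.3% fell in that comparison. At 2% against 60% RWC 12 rose and 22 fell, or 22.2% and 40.7% of the list, against 19.6% and 25% of all contigs. On rehydration 6 rose and 31 fell, against 31.1% and 25.4% of all contigs. Of 30 contigs described as early light-induced proteins, which bind chlorophyll under light stress, 25 rose and 4 fell at 60% RWC against fresh leaves (15.6% and 23.3% of all contigs). Of them 18 rose and 1 fell at 2% against 60% RWC (19.6% and 25% of all contigs). Of 11 oleosins and caleosins, coat proteins of oil bodies, 9 rose and 1 fell at 60% RWC against fresh leaves, and on rehydration 1 rose and 10 fell, with 31.1% and 25.4% of all contigs. At 2% against 60% RWC 1 rose and 5 fell, with a median log2 fold change of -0.74. The 1 that rose was the most abundant, the oleosin Cp_V2_contig_20784, which had 1212 ± 71.7 RPKM at 2% RWC, against 195 ± 40.4 RPKM at 60% RWC (SD, n = 3 each; 2.75, SE 0.34, edgeR adjusted p = 9.43e-05). Of 13 small heat shock proteins, chaperones that hold unfolding proteins, 0 rose and 1 fell at 60% RWC and 0 rose and 3 fell at 2% RWC, both against fresh leaves, where 15.6% and 26% of all contigs rose and 23.3% and 34.9% fell. By DESeq2 or at an unadjusted p below 0.05 in edgeR also 0 of these 13 rose. Without fresh replicate 1, however, 9 of them rose at 60% RWC and 8 at 2% RWC, so these counts rest on that library.

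The 8 contigs most alike in course were found by the Pearson correlation of log2 CPM (reads scaled to library size) with Cp_V2_contig_4317 over the 12 libraries, among described contigs in the upper 50% by level. The 12 libraries are 4 states in 3 copies, so r mostly measures a shared course over states. The median r over 23246 contigs was 0.171, and 213 contigs reached 0.95. The sisters Cp_V2_contig_10660 (r = 0.997) and Cp_V2_contig_2915 (r = 0.996) and the dehydrin Cp_V2_contig_22485 (r = 0.992) were among the 8. Cp_V2_contig_23992, like the calcium-binding olive pollen allergen Ole e 8, had r = 0.997. Its level was 11.9 ± 6.25 RPKM in fresh leaves and 596 ± 42.8 at 60% RWC, with 442 ± 24.7 at 2% RWC and 36.6 ± 5.69 in rehydrated leaves (SD, n = 3 each). Cp_V2_contig_19460, like scopoletin glucosyltransferase, an enzyme that adds glucose to a coumarin, had r = 0.994 and was level between the dried states, with 905 ± 108 RPKM at 2% RWC and 904 ± 92.5 RPKM at 60% RWC (SD, n = 3 each).

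The other 3 of the 8 were far less abundant. Cp_V2_contig_26949, a probable membrane-associated kinase regulator (r = 0.992), averaged 21.9 RPKM over the 12 libraries. Cp_V2_contig_24820, alcohol dehydrogenase 1, an enzyme of ethanol fermentation (r = 0.991), averaged 27.9 RPKM. Cp_V2_contig_7355, an IST1-like protein (r = 0.989), averaged 28.9 RPKM. The last of these shares the course but not the size, with a log2 fold change of 1.26 (SE 0.14) at 60% RWC against fresh leaves. Cp_V2_contig_7355 was chosen for its likeness, so this value is a description and not a test.

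**Figure D5:**
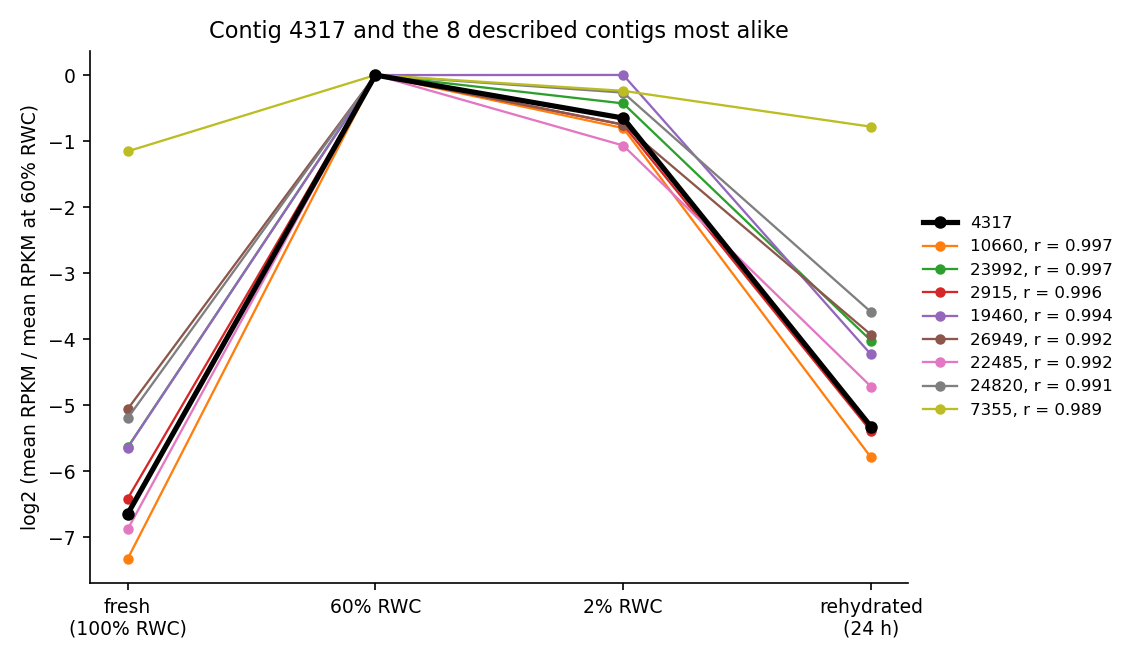
State means of RPKM relative to the mean at 60% RWC, on a log2 scale, for Cp_V2_contig_4317 (thick black) and the 8 described contigs most alike in course, with r over the 12 libraries in the legend. All 9 are highest at 60% RWC or level between the dried states, and Cp_V2_contig_7355 spans little more than 1 log2 unit where Cp_V2_contig_4317 spans more than 6.

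Fresh replicate 1 was the highest fresh library for 33 of the 49 desiccation-related contigs (67.3%), 8 of the 13 dehydrins and 31 of 54 LEA contigs, against 23.9% of all contigs. The log2 range of Cp_V2_contig_4317 over the fresh libraries was 2.65, and 8.64% of all contigs had a wider one, as did 5 of the 49 desiccation-related contigs and 1 of the 13 dehydrins. The median range of the 49 was 1.39. The photosynthetic markers held 2.26, 2.97 and 1.71% of reads in fresh replicates 1, 2 and 3, so replicate 1 was in the middle by that measure.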

How the data were processed

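Leaf RNA was measured in 12 libraries, 3 in each of 4 states, grouped by their labels. Stranded libraries were sequenced as paired reads of 75 bases, per the labels' protocols. The expression table holds whole-number counts that the authors deposited, as total and as unique reads of each contig. The RPKM values were deposited by the authors, and recomputing them from total reads, contig length and library totals gave a relative difference of at most 1.6e-08. The sources used here do not name the mapper, the assembler or the strand setting. With no molecular identifiers, reads are not independent molecules.

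Total reads of all 12 libraries were fitted once with edgeR 4.0.16 (R 4.3.3): a mean per state, TMM scaling, filterByExpr (minimum count 10, total 15) and robust quasi-likelihood tests, two-sided, with Benjamini-Hochberg adjustment over 46494 contigs and calls below 0.05. The SE is the log2 fold change divided by the root of its F value. DESeq2 1.42.0, other scalings and filters, unique reads, fits of 6 libraries, a replicate block and leaving out each library were tried, and the procedure was tested on simulated counts. Log2 CPM for the correlations used a prior count of 2.

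Contigs were named by a rule: Cp_V2_contig_4317, the 10 highest desiccation-related contigs and the 3 next in mean RPKM, the 8 most alike, and the most abundant of the LEA, early light-induced and oleosin lists. Dehydrins and contigs grouped by best hit were added after their values were seen. The members and lists were chosen with earlier results of these data known. Libraries are labelled biological replicates from independent leaf pools.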

Additional observations from a re-analysis of the deposited data

How the results depend on the processing

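Cp_V2_contig_4317 kept the direction of its log2 fold change in the 5 comparisons under every alternative run. When each library was left out in turn, the log2 fold change ranged from 6.25 to 7.67 for 60% RWC and from 5.72 to 7.14 for 2% RWC against fresh leaves, and from 0.65 to 2.07 for rehydrated against fresh leaves, with the extremes from fresh replicates 2 and 1. With TMM-scaled library totals its level was 45774 RPKM at 2% RWC, against 40294 as deposited, and 1364 RPKM in rehydrated leaves, against 1577. Among all contigs, rehydrated against fresh leaves was the least settled comparison: 1726 higher and 2645 lower in the fit of all libraries, 2890 and 4581 with DESeq2, 201 and 179 in a fit of the 6 libraries, 2252 and 1905 without TMM, and 754 to 5106 and 768 to 6113 with a library left out (lowest without rehydrated replicate 2, highest without fresh replicate 2). The LEA list there gave 19 higher and 5 lower, 8 and 0 with 6 libraries, and 1 to 10 lower with a library left out. Of the desiccation-related list, 1 contig was lower at 60% RWC against fresh leaves, 2 with DESeq2 or without TMM, 0 with 6 libraries and 0 to 2 with a library left out. At 2% against 60% RWC 7 were lower, 11 with 6 libraries. In rehydrated against fresh leaves 0 were lower, 3 with DESeq2 and 0 to 3 with a library left out. At 60% RWC against fresh leaves 7241 of all contigs were higher, 4450 with 6 libraries. On rehydration 14457 were higher and 11799 lower, and 18434 and 7821 without TMM. The cause of these differences was not tested. Replicate numbers were not used to pair the libraries in the main fit. The deviations of 18 same-numbered pairs from their state means correlated at -0.15 to 0.25, with 3 above 0.1. With no differently numbered pairs set beside them, these values cannot decide whether the libraries are paired. With the replicate block the log2 fold changes of Cp_V2_contig_4317 were 6.87 at 60% RWC and 6.33 at 2% RWC against fresh leaves, and of 170 fold changes of named contigs 166 kept their side of the threshold. In fits of 6 libraries 17 of these 170 lost their call, most of them in rehydrated against fresh leaves. Counts of Cp_V2_contig_4317 were 1287 reads or more in each library.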

Other observations

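Contigs without a description were left out when the most alike were named, and one of them was closer to Cp_V2_contig_4317 than any described contig. Cp_V2_contig_6376, 492 bases long, had r = 0.998 over the 12 libraries. It averaged 41.4 ± 30.3 RPKM in fresh leaves and 3385 ± 182 at 60% RWC, with 2036 ± 161 at 2% RWC and 93.9 ± 3.82 in rehydrated leaves (SD, n = 3 each). Cp_V2_contig_670 (r = 0.983) had 522 ± 38.8 RPKM at 2% RWC and 518 ± 37.9 at 60% RWC, and Cp_V2_contig_5967 (r = 0.980) had 472 ± 55.9 RPKM at 2% RWC and 1045 ± 31.8 at 60% RWC (SD, n = 3 each). These 3 contigs were chosen for their likeness, so r is a description.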
